A study of Oryza sativa Japonica Group with 6 samples.

Results

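Gibberellins are plant hormones that drive cell elongation and division. Early enzymes cyclise and oxidise a diterpene precursor, soluble oxidases named GA20ox and GA3ox finish the active hormone, and GA2ox enzymes inactivate it. The hormone binds the receptor GID1, which then captures the growth repressor SLR1, a DELLA protein, so that the F-box protein GID2 can mark SLR1 for destruction. In roots this module is known for its part in the length of the meristem and of the elongating cells. Transcripts of 10 genes of this pathway in rice were examined, chosen by their locus identifiers among the 31010 genes of the deposited table. In the order of the pathway they were CPS1, KAO, GA20ox1, GA20ox2 (also SD1, the semi-dwarf gene), GA3ox2, GA2ox1, GA2ox3, SLR1, GID1 and GID2.

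RNA came from root tips, about 0.8 cm long, of rice (Oryza sativa Japonica Group) seedlings aged 7 days. The plants were plt345, a triple mutant in the root meristem transcription factor genes PLT3, PLT4 and PLT5, and wild type of the line ZH11. Seedlings of both genotypes grew without treatment on half-strength medium with 14 h of light a day, and each genotype gave 3 libraries. The labels do not say what kind of mutations plt345 carries or whether the libraries came from separate plants, so p-values rest on differences among these libraries alone and may be technical in part.

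Depth was even, between 20759896 and 21309371 reads counted on genes per library. Values are normalized counts as deposited, that is reads divided by a size factor per library, which left 1 read worth between 0.96 and 1.02. Of all genes, 23166 had a mean of at least 10 and were tested with limma, a linear model on log2(value + 1), with a Benjamini-Hochberg adjusted p under 0.05 as threshold. Of these 68.0% passed, 34.0% higher and 34.0% lower in plt345, and the groups did not overlap in 71.0% (35.6% higher and 35.5% lower in plt345). A passed test is therefore the common case in these libraries. Folds given for single genes are ratios of the group means. Log2 fold changes, and the limit for changes of at least 2-fold, come from limma and include the 1 added to each value. The mutated genes kept their transcripts, with PLT3 at 576.4 ± 19.8 in plt345 and 579.5 ± 5.92 in wild type, PLT4 at 231.4 ± 13.0 and 269.8 ± 19.8, and PLT5 at 1268 ± 9.02 and 531.2 ± 28.9 (SD, n = 3 each; their loci rest on nomenclature alone). Since a mutated gene can keep its RNA, the genotype is not checked by these levels. All 4 root markers (QHB, PIN2, LSI1 and CASP1) were present and summed to between 9155 and 9365 in plt345 libraries and between 7984 and 8148 in wild type libraries. Within that sum QHB and LSI1 were higher in plt345 (4.60-fold and 3.90-fold) and PIN2 and CASP1 lower (1.49-fold and 1.37-fold). The 3 shoot markers (CAB1R, YAB1 and OSH1) summed to between 6.85 and 11.8 in plt345 and between 40.9 and 49.1 in wild type. That difference was CAB1R alone, at 3.56 ± 1.98 in plt345 and 43.2 ± 3.11 in wild type. YAB1 was at 5.20 ± 2.29 in plt345 and 2.38 ± 1.18 in wild type, and OSH1 had 2 reads over the plt345 libraries and 0 over the wild type libraries.

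In plt345 root tips the 2 GA20ox members changed in opposite directions. GA20ox1 was 3.39-fold higher in plt345 while its relative GA20ox2 was 5.66-fold lower, both GA2ox genes were higher, and the receptor gene GID1 was 1.97-fold higher. SLR1, the repressor, did not pass the test. Of the 10 members 9 were tested and 8 passed, 5 higher and 3 lower, against 68.0% of all tested genes in either direction, 34.0% in each. The genotypes did not overlap for 7 of the 9, against 71.0% of all tested genes. Changes of at least 2-fold were found for 4 members that were higher and 1 that was lower, where 13.8% of tested genes were higher and 2.97% lower by that much. The median log2 fold change of the tested members was 0.98 against -0.01 over all tested genes. KAO passed the filter on the mean only through its level in plt345, so these counts and this median describe the tested members and are not a test of the list.

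**Figure D1:**
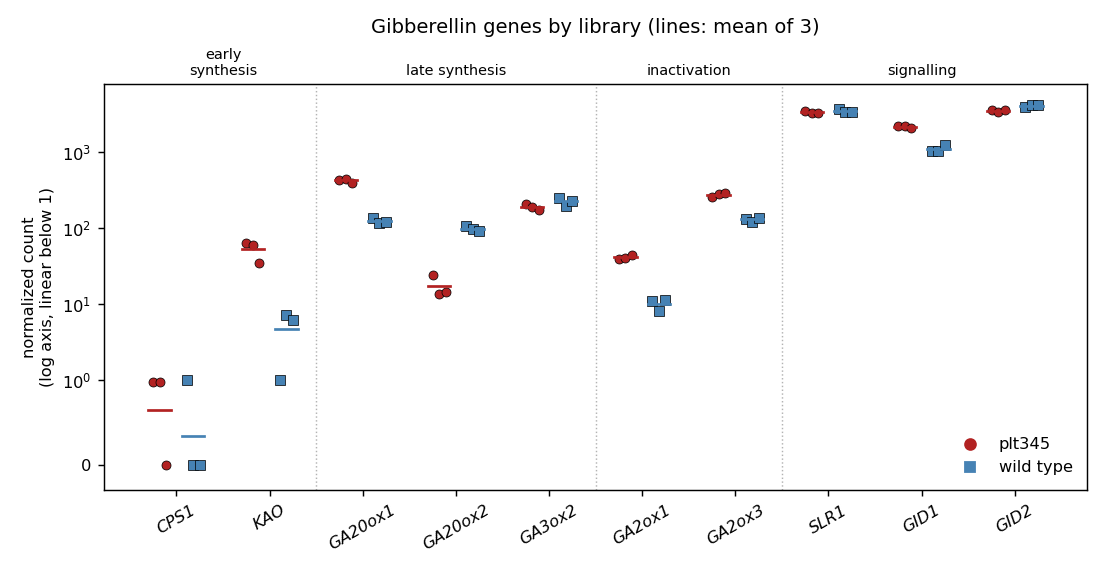
Normalized counts (log axis, linear below 1) of the 10 members in each of the 3 plt345 libraries (red circles) and the 3 wild type libraries (blue squares), with a line at each mean. The genotypes are clearly apart for KAO, GA20ox1, GA20ox2, GA2ox1, GA2ox3 and GID1, they overlap for CPS1, GA3ox2 and SLR1, and GID2 is separated by a small margin.

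CPS1 (LOC_Os02g17780) encodes the enzyme that makes ent-copalyl diphosphate, the entry to the pathway. It had 2 reads over the 3 plt345 libraries and 1 read over the 3 wild type libraries, all at or under the floor of 3 reads, so no fold change is given. A difference in CPS1 was not detectable at this depth.

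KAO (LOC_Os06g02019) encodes ent-kaurenoic acid oxidase, the last of the early steps. It had 63.7, 59.7 and 34.6 normalized counts in plt345 libraries 1 to 3, against 1.02, 7.16 and 6.14 in wild type libraries 1 to 3. Each plt345 library was higher than each wild type library. The means were 52.7 ± 15.8 in plt345 and 4.77 ± 3.29 in wild type (SD, n = 3 each), and KAO was higher in plt345 with a log2 fold change of 3.41 (SE 0.40, adjusted p = 3.47e-08 by limma). The ratio of the means was 11.0, with a 95% exact binomial interval of 6.39 to 20.6 from 162 and 14 reads. This and the other intervals from reads cover counting error only. Without wild type library 1, which had the fewest KAO reads, the log2 fold change was 2.77, and with a pseudocount of 5 it was 2.59. Among all tested genes 2.52% had a larger log2 fold change. KAO was the member with the widest change. Its profile over the 6 libraries was closest, by Euclidean distance between centred log2 values, to those of LOC_Os10g06630 (distance 1.18) and LOC_Os08g16050 (distance 1.22). The candidates were 18855 genes whose mean reached 50, which KAO itself did not. Both genes were also higher in plt345, with log2 fold changes of 3.23 and 2.97. With only 2 genotypes such likeness largely reflects the size of that difference.

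The other early steps come from the rest of the pathway. KS1 (LOC_Os04g52230), the ent-kaurene synthase gene, was at 9.42 ± 1.19 in plt345 and 12.6 ± 1.59 in wild type and did not pass (log2 fold change -0.38, 95% interval -1.05 to 0.28). KO2 (LOC_Os06g37364), an ent-kaurene oxidase gene, was lower in plt345, at 442.8 ± 43.1 against 547.6 ± 9.56 in wild type (log2 fold change -0.31, adjusted p = 0.000132 by limma). Of the early genes that were tested, KAO was thus called higher and KO2 lower, while KS1 was not called. The same precursor also feeds defence diterpenoids through relatives of CPS1. Of these, CPS4 (LOC_Os04g09900), of momilactone synthesis, was at 348.6 ± 16.3 in plt345 and 148.1 ± 10.5 in wild type, and was higher (log2 fold change 1.23, adjusted p = 1.5e-12 by limma). CPS2 (LOC_Os02g36210), of phytocassane synthesis, had 31 reads over the plt345 libraries and 0 over the wild type libraries. With its level in wild type set at a floor of 3 reads for the group, CPS2 was 9.84-fold higher in plt345, counting error left out. Among the kaurene oxidase relatives near KO2, the locus entered as KOL5 (LOC_Os06g37300) was higher in plt345. It was at 83.7 ± 10.9 in plt345 and 18.4 ± 8.14 in wild type (log2 fold change 2.20, adjusted p = 6.85e-09 by limma). The loci entered as KO1 (LOC_Os06g37330) and KOL4 (LOC_Os06g37224) did not pass, with log2 fold changes of -0.21 (95% interval -0.56 to 0.15) and 0.32 (-0.16 to 0.81). The reference table gives KO1 and KOL4 as names of 1 gene, and holds 3 genes on chromosome 6 under the name KO1. These neighbours are similar in sequence, so reads could be split between them. Names were checked only to within 1 Mb, which cannot tell such neighbours apart. The names KOL4 and KOL5 could thus be exchanged, and each value belongs to its locus.

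GA20ox enzymes carry out the series of oxidations that leads to the direct precursors of active gibberellins. GA20ox1 (LOC_Os03g63970) had 436.3, 447.1 and 395.2 normalized counts in plt345 libraries 1 to 3, against 138.3, 117.6 and 121.7 in wild type libraries 1 to 3. The lowest plt345 library was well above the highest wild type library. GA20ox1 averaged 426.2 ± 27.4 in plt345 and 125.9 ± 10.9 in wild type, a log2 fold change of 1.75 (SE 0.09, adjusted p = 1.81e-15 by limma). GA20ox2 (LOC_Os01g66100), whose loss gives semi-dwarf rice, had 24.5, 13.7 and 14.4 normalized counts in plt345 libraries 1 to 3, against 107.8, 97.2 and 93.1 in wild type libraries 1 to 3. All plt345 libraries were far below all wild type libraries. GA20ox2 averaged 17.5 ± 6.05 in plt345 and 99.4 ± 7.59 in wild type, a log2 fold change of -2.48 (SE 0.21, adjusted p = 8.78e-11 by limma). Among all tested genes 0.341% had a lower log2 fold change than GA20ox2.

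The shift between these 2 genes was also measured within each library, where depth nearly cancels. Here and in the other ratios 1 was added to each value. The log2 ratio of GA20ox1 to GA20ox2 was 4.10, 4.93 and 4.68 in plt345 libraries 1 to 3, against 0.36, 0.27 and 0.38 in wild type libraries 1 to 3. The mean ratios differed by 4.23 on the log2 scale, an 18.8-fold shift, and by 3.96 with a pseudocount of 5. There was no overlap between genotypes (exact permutation test, two-sided, p = 0.1, the smallest that 3 libraries against 3 can give). Of the reads on both genes together, GA20ox1 took 94.7%, 97.0% and 96.5% in the plt345 libraries, with 95% Wilson intervals (counting error only) between 92.3% and 98.2%. It took 56.2%, 54.8% and 56.7% in the wild type libraries, with intervals between 48.0% and 63.2%. Transcript lengths were not used, so these are shares of reads and not of molecules. Together the GA20ox members reached 443.8 ± 29.6 normalized counts in plt345 and 225.2 ± 18.1 in wild type, 1.97-fold higher in plt345.

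**Figure D2:**
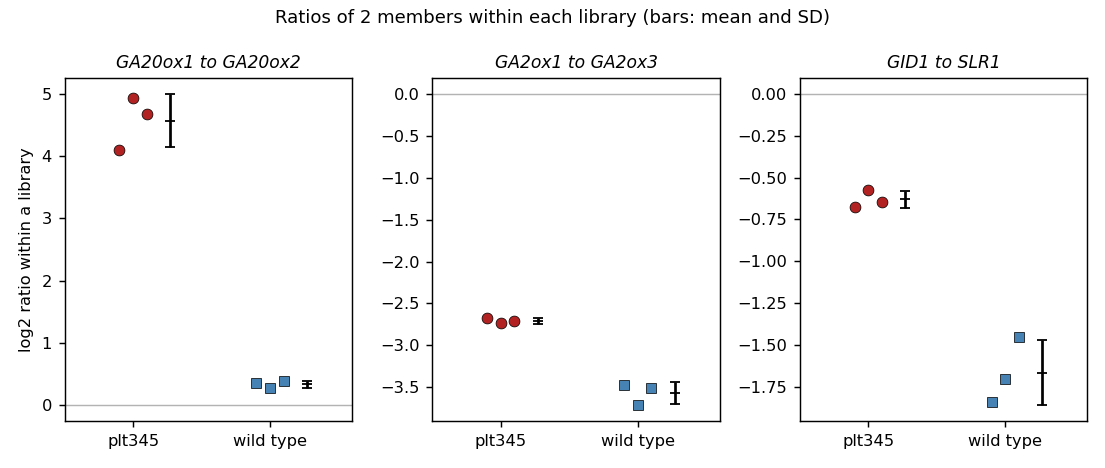
Log2 ratio of the normalized counts of 2 members within each library, for plt345 (red circles, left) and wild type (blue squares, right), with mean and SD of 3 libraries as bars. The ratio of GA20ox1 to GA20ox2 lies between 4.10 and 4.93 in plt345 and between 0.27 and 0.38 in wild type, and the other ratios are separated by smaller distances.

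GA20ox3 (LOC_Os07g07420), a further gene of this enzyme class, was too low to test, with 22 reads over the plt345 libraries and 34 over the wild type libraries. The locus entered as GA20ox4 (LOC_Os05g34854) was also under the filter, with 13.7, 15.7 and 13.5 normalized counts in plt345 libraries 1 to 3 and 0 in every wild type library. That was 44 reads against 0, which is 14.0-fold higher in plt345 with that floor and with counting error left out. Reads were thus found at this locus in each plt345 library and in no wild type library.

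GA3ox2 (LOC_Os01g08220) encodes the enzyme of the final activating step. It had 205.9, 190.8 and 173.1 normalized counts in plt345 libraries 1 to 3, against 251.2, 198.4 and 227.1 in wild type libraries 1 to 3. The genotypes overlapped, since plt345 library 1 was above wild type library 2. GA3ox2 averaged 189.9 ± 16.4 in plt345 and 225.6 ± 26.4 in wild type and passed narrowly as lower (log2 fold change -0.24, SE 0.10, adjusted p = 0.0279 by limma). The call was lost in the authors' deposited table (adjusted p = 0.105), with DESeq2 on the recovered reads (0.0827), with library totals as scaling (0.151), with no filter on low genes (0.0581), and without plt345 library 2 (0.0618), plt345 library 3 (0.15), wild type library 1 (0.168) or wild type library 3 (0.0629).

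The inactivating enzymes GA2ox1 and GA2ox3 hydroxylate active gibberellins or their precursors. GA2ox1 (LOC_Os05g06670) had 39.2, 41.1 and 44.2 normalized counts in plt345 libraries 1 to 3, against 11.2, 8.18 and 11.3 in wild type libraries 1 to 3. The libraries of a genotype lay close together and the genotypes were far apart. GA2ox1 averaged 41.5 ± 2.53 in plt345 and 10.2 ± 1.75 in wild type, a 4.07-fold rise (log2 fold change 1.93, SE 0.25, adjusted p = 1.92e-07 by limma). Its 128 and 30 reads gave a 95% exact binomial interval of 2.72 to 6.27 for the ratio, for counting error only. GA2ox3 (LOC_Os01g55240) had 254.9, 279.8 and 295.2 normalized counts in plt345 libraries 1 to 3, against 134.2, 119.7 and 138.1 in wild type libraries 1 to 3. Every plt345 library was higher than every wild type library. GA2ox3 averaged 276.6 ± 20.3 in plt345 and 130.7 ± 9.73 in wild type, a 2.12-fold rise (log2 fold change 1.08, SE 0.09, adjusted p = 1.6e-10 by limma). The ratio of GA2ox1 to GA2ox3 was higher in plt345 by 0.86 on the log2 scale, with no overlap between genotypes (exact permutation test, two-sided, p = 0.1, the smallest possible), and with a pseudocount of 5 that difference was 0.56.

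Of 9 other inactivation genes 4 were tested, with 2 higher, 1 lower and 1 that did not pass, where 34.0% of all tested genes were called in each direction. EUI1 (LOC_Os05g40384), a cytochrome P450 gene whose product inactivates gibberellins by epoxidation, had 284.4, 280.8 and 301.0 normalized counts in plt345 libraries 1 to 3, against 88.5, 70.6 and 87.0 in wild type libraries 1 to 3. The genotypes were widely separated, and EUI1 was 3.52-fold higher in plt345 (log2 fold change 1.81, SE 0.11, adjusted p = 6.02e-14 by limma). The locus entered as GA2ox8 (LOC_Os05g48700) had 48.0, 58.7 and 40.4 normalized counts in plt345 libraries 1 to 3, against 6.10, 7.16 and 1.02 in wild type libraries 1 to 3. This was 10.3-fold higher in plt345 (log2 fold change 3.34, SE 0.39, adjusted p = 3.27e-08 by limma), and like KAO it passed the filter only through plt345. Without wild type library 3 its log2 fold change was 2.70, and with a pseudocount of 5 it was 2.52. The locus entered as GA2ox10 (LOC_Os05g11810) went the other way, at 1139, 1052 and 1130 normalized counts in plt345 libraries 1 to 3, against 2082, 1816 and 1882 in wild type libraries 1 to 3. No plt345 library reached the lowest wild type library, and the fall was 1.74-fold (log2 fold change -0.80, SE 0.05, adjusted p = 6.63e-14 by limma). The locus entered as GA2ox9 (LOC_Os02g41954) did not pass, at 12.3 ± 0.69 in plt345 and 16.0 ± 6.60 in wild type (log2 fold change -0.28, 95% interval -0.93 to 0.36), and its sign turned without wild type library 3 (0.01). Of the loci under the filter, the one entered as GA2ox6 (LOC_Os04g44150) had 9.81, 15.7 and 20.2 normalized counts in plt345 libraries 1 to 3, against 2.03, 1.02 and 3.07 in wild type libraries 1 to 3. Its 47 and 6 reads gave a ratio of 7.47 with a 95% exact binomial interval of 3.19 to 21.4, for counting error only. The locus entered as GA2ox4 had 9 reads over the plt345 libraries and 0 over the wild type libraries. Those entered as GA2ox2 (36 and 24 reads), GA2ox5 (3 and 3) and GA2ox7 (9 and 4) were not called even with no filter.

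Of the 3 signalling members GID1 (LOC_Os05g33730), the gibberellin receptor gene, changed most. It had 2194, 2240 and 2113 normalized counts in plt345 libraries 1 to 3, against 1047, 1048 and 1234 in wild type libraries 1 to 3. Each plt345 library was far above the highest wild type library. GID1 averaged 2182 ± 64.4 in plt345 and 1110 ± 107 in wild type, a log2 fold change of 0.98 (SE 0.05, adjusted p = 3.38e-15 by limma). SLR1 (LOC_Os03g49990), the DELLA repressor gene, had 3501, 3328 and 3309 normalized counts in plt345 libraries 1 to 3, against 3749, 3421 and 3385 in wild type libraries 1 to 3. The genotypes overlapped. SLR1 averaged 3379 ± 106 in plt345 and 3519 ± 201 in wild type and did not pass (log2 fold change -0.06, 95% interval -0.13 to 0.02, adjusted p = 0.177 by limma). Library totals as scaling raised SLR1 and the median of all tested genes alike, by 0.09, which gave 0.03 for SLR1. SLR1 is regulated through the stability of its protein, which RNA-seq does not measure. Within libraries the log2 ratio of GID1 to SLR1 was -0.67, -0.57 and -0.65 in plt345 libraries 1 to 3, against -1.84, -1.71 and -1.46 in wild type libraries 1 to 3. The ratio was higher in plt345 by 1.04 on the log2 scale, with no overlap (exact permutation test, two-sided, p = 0.1, the smallest possible).

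The locus listed as GID2 (LOC_Os02g36974), for the F-box subunit that targets SLR1, had 3642, 3424 and 3580 normalized counts in plt345 libraries 1 to 3, against 3950, 4259 and 4161 in wild type libraries 1 to 3. The highest plt345 library lay below the lowest wild type library by a small margin. The means were 3549 ± 112 in plt345 and 4123 ± 158 in wild type, 1.16-fold lower in plt345 (log2 fold change -0.22, SE 0.03, adjusted p = 4.46e-06 by limma). The reference table holds 2 overlapping genes under the name GID2, and gives the larger also the name GF14E, a 14-3-3 protein gene. Reads of GID2 and GF14E may both be counted at this locus and cannot be told apart here, so the value belongs to the locus and not to GID2 alone.

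Of 5 other signalling genes 4 were tested, with 2 higher and 2 lower, where 34.0% of all tested genes were called in each direction. Of these 4, SPY lost its call under some alternatives, given below. GAMYB (LOC_Os01g59660), a transcription factor gene of gibberellin responses known from cereal grains and anthers, was 2.11-fold higher, at 155.1 ± 13.2 in plt345 and 73.5 ± 9.02 in wild type (log2 fold change 1.07, adjusted p = 3.69e-08 by limma). SLRL1 (LOC_Os01g45860), a relative of SLR1 that lacks the DELLA motif, was 1.51-fold lower, at 178.8 ± 18.8 in plt345 and 269.2 ± 15.9 in wild type (log2 fold change -0.59, adjusted p = 2.48e-06 by limma). The locus entered as GSR1 (LOC_Os06g15620), of a family of small gibberellin-responsive proteins, had 2471, 2539 and 2378 normalized counts in plt345 libraries 1 to 3, against 4922, 5025 and 4797 in wild type libraries 1 to 3. The libraries of each genotype were tightly grouped, and the fall was 2.00-fold (log2 fold change -0.997, SE 0.03, adjusted p = 5.44e-19 by limma). SPY (LOC_Os08g44510), a sugar transferase gene that restrains gibberellin signalling, was at 2047 ± 47.2 in plt345 and 1926 ± 38.6 in wild type (log2 fold change 0.09, adjusted p = 0.0332 by limma). That call was lost in the authors' deposited table (adjusted p = 0.0916) and without plt345 library 2 (0.0579), plt345 library 3 (0.132), wild type library 1 (0.0896) or wild type library 2 (0.0719).

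Over all 19 further pathway genes, 10 were tested and 8 passed, 4 higher and 4 lower, beside 68.0% of all tested genes. The median log2 fold change of the 10 tested genes was -0.30 against -0.01 over all tested genes. The locus entered as GA2ox8 passed the filter only through plt345, and with no filter 7 further genes were higher and 4 lower. These counts and this median thus describe the tested genes and are not a test of the list. Of the 9 not tested 8 were under the filter, and the locus entered as GA3ox1 was not among the 31010 genes of the deposited table. No gene without a read is listed there, so a locus without reads and one missing from the annotation cannot be told apart. With members and further genes set side by side, steps of synthesis, inactivation and signalling each held genes that were higher and genes that were lower in plt345.

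**Figure D3:**
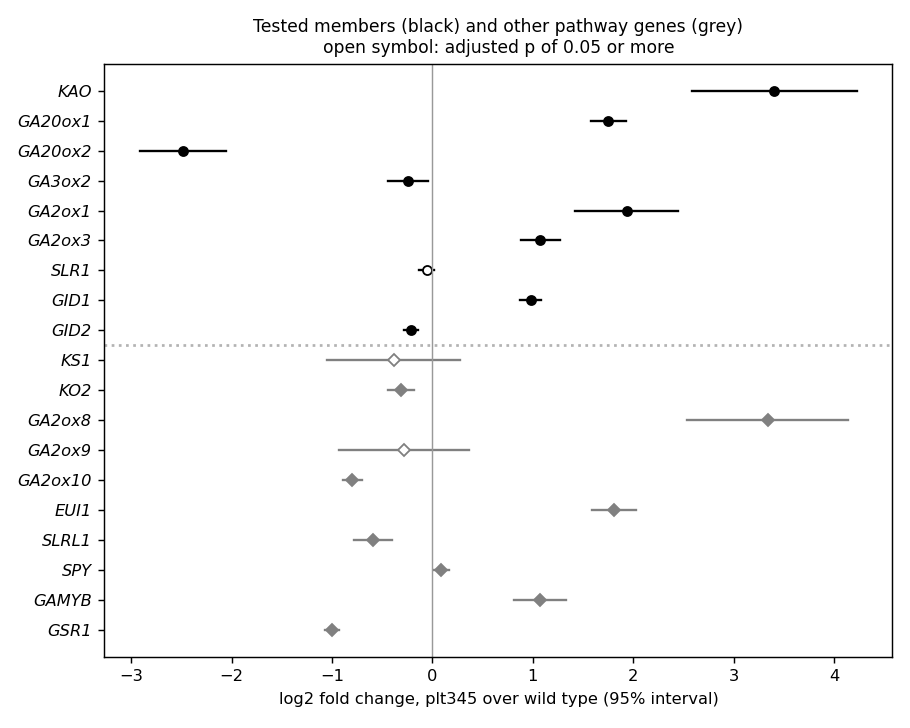
Log2 fold change (plt345 over wild type) and 95% interval for the 9 tested members (black circles) and the 10 tested further pathway genes (grey diamonds), with open symbols for genes that did not pass. KAO (3.41) and the locus entered as GA2ox8 (3.34) lie farthest to the right, GA20ox2 (-2.48) lies farthest to the left, and SLR1 (-0.06) lies next to 0.

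Against the whole transcriptome, GA20ox2 stood in the thin lower tail. Of the members that were higher, GID1 had 14.0% of tested genes above it, GA2ox3 12.9%, GA20ox1 7.69% and GA2ox1 6.82%, so that changes of these sizes were not rare here. GA3ox2, GID2 and SLR1 lay within the bulk of the genes.

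**Figure D4:**
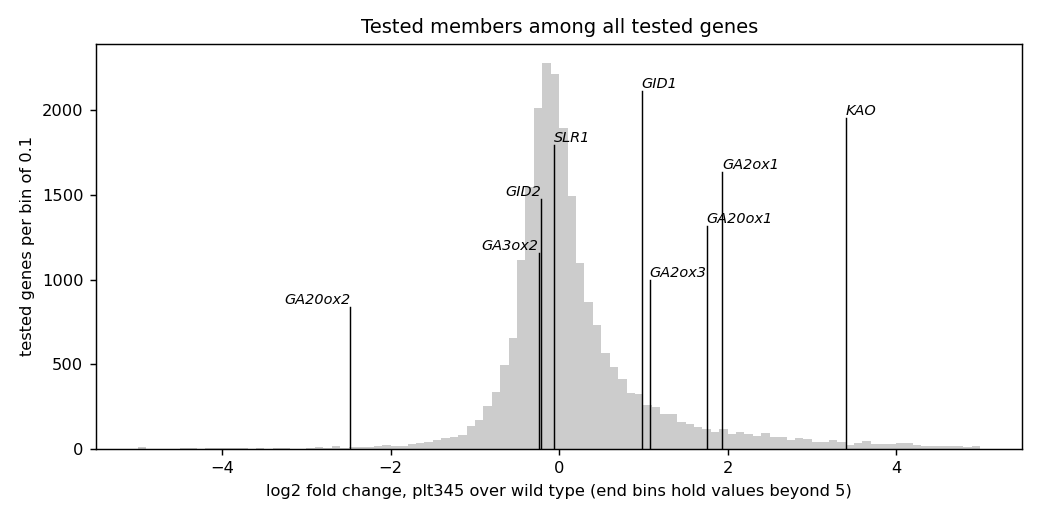
Histogram of log2 fold changes (plt345 over wild type) for all 23166 tested genes in bins of 0.1 (values beyond 5 in the end bins), with a line at each tested member whose height carries no meaning. GA20ox2 lies at -2.48, where few genes fall, and KAO lies at 3.41 in the longer upper tail.

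Markers of dividing and of differentiated root cells moved with the genotype too. The 3 markers of dividing cells (PCNA, MCM4 and CYCB2;2) were all lower, with sums between 3492 and 3710 in plt345 and between 4872 and 5035 in wild type. The 6 markers of differentiated root (LSI1, LSI2, CESA4, CESA7, CESA9 and NAR2.1) were each higher, with sums between 11091 and 11348 in plt345 and between 4017 and 4110 in wild type, and none of these markers was at 0. CASP1, the endodermis gene kept in the root list above, went the other way, at 1577 ± 64.1 in plt345 and 2159 ± 67.4 in wild type (log2 fold change -0.45, adjusted p = 1.4e-10 by limma). In whole root tips fewer cells of a type and less RNA per cell cannot be told apart. The part of these shifts in the gibberellin values was not tested.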

How the data were processed

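RNA-seq libraries of root tips were sequenced as paired ends of 150 bases on a BGISEQ-500, per the labels' protocols. HISAT2, featureCounts 2.0.0 and DESeq2 1.38.3 were used, per the submitters' processing notes. The sources used here give no build, parameters or strand setting, so reads of overlapping, antisense or closely similar genes cannot be told apart. The authors deposited 1 table with size-factor-normalized counts per library (a signal that is never negative) and their mean, per the file headers. It also holds the authors' log2 fold change and standard error. A score (the Wald statistic) and raw and adjusted p-values were deposited beside them, as DESeq2 output. Whole reads could be recovered, since 100% of values came within 0.01 of a whole multiple of 1 read. No value column was left out.

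Genes with a mean of at least 10 entered a two-sided test of log2(value + 1), with adjustment over all of them (limma 3.58.1 with a mean trend and no covariate, R 4.3.3). The pseudocount understates changes of low genes. Alternatives were edgeR 4.0.16 (whose count test called 8130 genes higher and 7771 lower), DESeq2 1.42.0, other scalings, filters and pseudocounts, and leaving out each library. Pairs of libraries differed by more than sampling noise (chi-square per gene 1.42 to 2.09 within and 53.3 to 54.8 between genotypes), so none was merged.

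Members, lists and tests were chosen with earlier results of these data known. All members, every tested gene of the further pathway list and the related diterpenoid genes were named by rule, and those under the filter were chosen after their values were seen. Locus identifiers are not in the reference table of symbols (assembly ASM3414082v1), so a name was checked by asking whether its symbol lies within 1 Mb of the place interpolated from other pairs on the chromosome. Of the members 6 matched. GA20ox1, GA3ox2, GA2ox1 and GA2ox3 are names whose symbols the table does not hold. Of the 19 further pathway genes 7 matched, and the 12 others, written as "entered as", rest on rice nomenclature alone. On chromosome 9 CAB1R and CESA9 had too few neighbours for the check. Sequences of the members were not used here.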

Additional observations from a re-analysis of the deposited data

How the results depend on the processing

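The calls of KAO, GA20ox1, GA20ox2, GA2ox1, GA2ox3, GID1 and GID2 kept direction and threshold under every alternative that tested them, and those of GA3ox2 (lost in 8 of 16) and SPY (lost in 5 of 16) did not. SLR1 turned to 0.030 with library totals, which moved it and the median of all genes by the same 0.09. The locus entered as GA2ox9 turned to 0.013 without wild type replicate 3 (lowest -0.49, without wild type replicate 1), where that library held its highest value. With a mean of at least 50, 3 members were higher, since KAO and GA2ox1 fell under the filter. With no filter, 7 further pathway genes were higher, the loci entered as GA20ox4, GA2ox4 and GA2ox6 being added. A change of at least 2-fold, a limit added after the data were seen, left 3192 genes higher and 687 lower, 1 member lower and 0 further pathway genes lower (4 by adjusted p alone in limma, edgeR and DESeq2). Library totals gave 60.8% higher among called genes against 50.1%. Without GID2, also added afterwards, 5 members were higher and 2 lower. Leaving out each library in turn gave 5 members higher and 2 to 3 lower. Replicate numbers were not treated as pairs in the main test. Same-numbered libraries had deviations correlated at 0.02, 0.02 and -0.00085. Libraries 1 and 2 of plt345 correlated best with their own number and library 3 did not, so these values cannot decide whether libraries were paired. With the replicate block 7941 genes were higher and 7972 lower, and it changed no call of a member or further pathway gene. Depth limits CPS1 and the genes under the filter.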
